A study of Mus musculus with 9 samples.

Results

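The 33 genes described here were listed as B cell receptor signalling and identity genes of the mouse, though many are not particular to B cells. They are the 2 signalling chains of the receptor, 4 proximal kinases, 4 adaptors and effectors, 5 inhibitory receptors, adaptors and phosphatases, 10 other surface and accessory proteins, and 8 transcription factors and coactivators. The members were taken by gene symbol from a list. All 33 were found among the 21965 gene identifiers counted, and all 33 were among the 7719 genes that passed the filter on low counts, so no member was lost to low counts.

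RNA sequencing was done on the spleens of 9 mice aged 16 weeks, 3 in each of 3 groups. BWF1 female and BWF1 male mice are the first-generation offspring of NZB and NZW parents, a hybrid known for spontaneous lupus-like autoimmunity that is more severe in females. BALB/c female mice, of an inbred strain without that disease, were the comparison group; no group was given a treatment, and there were no BALB/c males. Sample labels describe macrophages sorted for CD11b and F4/80 from collagenase-digested spleens, whereas the series description speaks of unsorted spleen cells, so the genes that define both populations were checked first.

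The B cell receptor is a membrane immunoglobulin bound to the chains Cd79a and Cd79b. When antigen clusters it, the Src-family kinases Lyn and Blk phosphorylate those chains, Syk docks on them, and Syk and Btk, with the adaptor Blnk, activate phospholipase C gamma 2 (Plcg2), which opens the calcium, Ras and NF-kB branches. Cd22, Cd72 and the phosphatases Ptpn6 and Inpp5d dampen the signal, and the factors Ebf1 and Pax5 establish and hold the B cell programme. In the spleen these genes are used by follicular and marginal zone B cells. Of the members, 11 are largely restricted to B cells and 22 are shared with other leukocytes, such as myeloid or T cells.

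The libraries held 458608 to 4305003 counts in genes, of which the single gene Lars2 took 42.3% to 76.6%. Levels are given as counts per 1000000 counts in the tested genes (CPM), scaled between libraries by trimmed mean of M values (TMM) factors, lowest at 0.530 (BWF1 male 1) and highest at 1.40 (BALB/c female 2). BWF1 male 1 stood apart by its low factor and by its Lars2 share, which was the highest of the 9. File names carry the tag ORIG (all 3 BALB/c libraries and replicate 2 of both BWF1 sexes) or RL (the other 4), with no stated meaning; all RL libraries are BWF1, so the tag is partly confounded with strain. Sample titles number 3 samples per group, read here as 3 mice, and p-values measure the spread between these libraries, which may be partly technical. Chi-square per degree of freedom compared gene counts between 2 libraries of a group, where counting noise alone gives about 1. It was 1.42 to 2.42 in BWF1 females, 4.33 to 25.8 in BWF1 males and 3.18 to 8.44 in BALB/c females. The BWF1 female libraries were also the shallowest.

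B cell RNA was abundant in every library, and the defining macrophage markers were not. The summed level of 4 B cell reference genes (Cd79a, Cd79b, Ms4a1 and Pax5) was 1265 ± 125 CPM in BWF1 females, 1537 ± 273 CPM in their males and 1636 ± 23.4 CPM in BALB/c females (SD, n = 3). The 14 macrophage markers together gave 251 ± 13.8, 661 ± 131 and 390 ± 38.0 CPM. Itgam, which encodes CD11b, had 0 to 1 counts per library in BWF1 females, 2 to 32 in BWF1 males and 5 to 10 in BALB/c females. In CPM, which allows for depth, these were 0 to 1.61, 2.05 to 6.66 and 4.96 to 6.57. Adgre1, which encodes F4/80, ranged from 11.3 to 20.8 CPM in the BWF1 libraries and from 5.26 to 8.62 CPM in the BALB/c libraries. Markers of the labelled sort were thus low, and the samples are called spleen libraries here.

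Summed markers of several other cell types differed between the groups. Summed T cell markers were 719 ± 55.0 CPM in BWF1 females, 1160 ± 76.3 CPM in their males and 866 ± 139 CPM in BALB/c females, and natural killer cell markers 103 ± 9.30, 297 ± 10.3 and 143 ± 20.4 CPM in the same order. Plasma cell markers, which belong to the antibody-secreting descendants of B cells, were 884 ± 181, 1807 ± 451 and 914 ± 77.9 CPM. Of these sums Jchain alone gave 392, 1239 and 500 CPM on average. For BWF1 females against BALB/c the log2 fold change was positive for 6 and negative for 2 of the 8 plasma cell markers tested. Their median was 0.39, and 0 were called. Erythroid markers were 1575 ± 1041, 597 ± 701 and 2637 ± 1660 CPM, with the BWF1 male libraries at 1406, 200 and 184 CPM. For BWF1 females against BALB/c the median log2 fold change of the 11 erythroid markers tested was -0.29. The lowest value on that list was -11.4 in each BWF1 sex against BALB/c, so the sums rest unevenly on the genes. Neutrophil markers were 293 ± 127, 492 ± 227 and 393 ± 51.4 CPM, dendritic cell markers 466 ± 42.3, 475 ± 18.6 and 484 ± 14.9 CPM, and platelet markers 70.9 ± 3.73, 55.7 ± 6.23 and 50.8 ± 3.95 CPM. The part of these shifts in the member levels below was not tested.

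To part the amount of B cell RNA from changes of single genes, the mean log2 level of the 4 reference genes, all of them members, was taken as 1 value per library. As a geometric mean it was 329, 340.1 and 281 CPM in the BWF1 female libraries, 305, 448 and 395 CPM in the BWF1 male libraries, and 404, 405 and 413 CPM in the BALB/c libraries. The BWF1 females all lay below all BALB/c females, while the males ran from within the female range (BWF1 male 1) to above the BALB/c range (BWF1 male 2). BWF1 females were 0.37 lower than BALB/c females on the log2 scale, which is -22.5%, with an exact two-sided permutation p of 0.1, the smallest that 3 against 3 allows. BWF1 males differed from BALB/c females by -0.11 (exact permutation p = 0.7) and BWF1 females from BWF1 males by -0.26 (exact permutation p = 0.3), and in both cases the groups overlapped. Without BWF1 male 1 the male difference from BALB/c was 0.0387. With a reference of Ms4a1, Pax5 and Cd22, without the receptor chains, it was -0.28 (exact permutation p = 0.1), and BWF1 females and males differed by -0.0963. The added gene Cd22 itself differed from BALB/c by -0.40 in BWF1 males, Pax5 by -0.34 and Ms4a1 by -0.03. The value of -0.28 thus includes the Cd22 difference. Within the RL libraries the females were at 329 and 281 CPM and the males at 305 and 395 CPM, and within the ORIG libraries they were at 340.1 and 448 CPM. In bulk RNA, fewer B cells and less of these transcripts per B cell cannot be told apart.

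**Figure D1:**
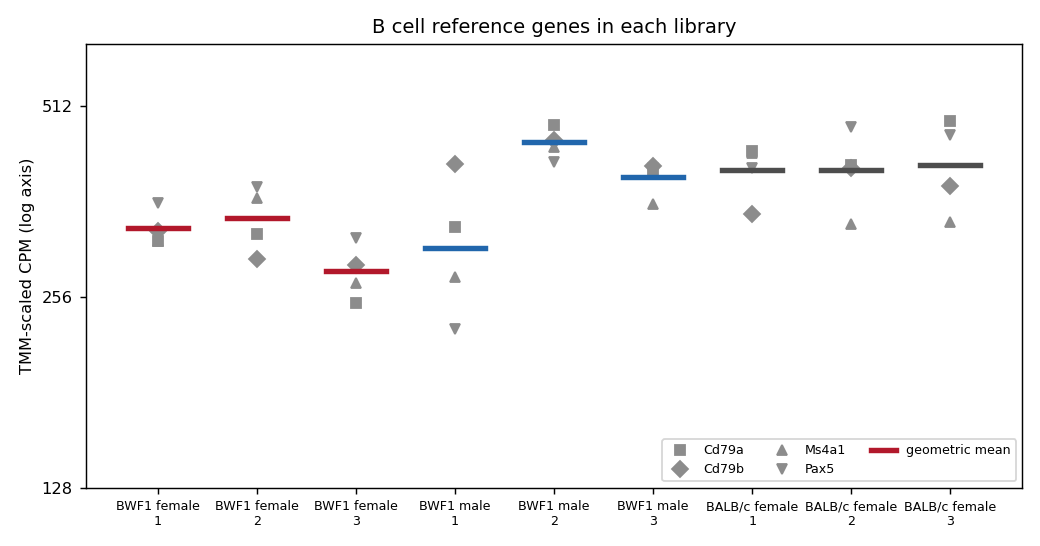
TMM-scaled CPM of the 4 B cell reference genes (grey symbols) and their geometric mean (bar, coloured by group) in each of the 9 libraries, on a log axis. The 3 BALB/c bars lie between 404 and 413 CPM and the 3 BWF1 female bars between 281 and 340.1 CPM; the BWF1 male bars run from 305 to 448 CPM.

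Across the 33 members few differences passed the test. Between BWF1 females and BWF1 males 0 of 33 were called by edgeR at an adjusted p under 0.05, where 2.19% of all tested genes were. At an unadjusted edgeR p under 0.05 there were 6 members, beside 16.4% of all tested genes. DESeq2 and limma-voom each called 1, Cd79b in both, and the shares of all genes called by those methods are not given here. Between BWF1 females and BALB/c females 3 members were lower in BWF1 females (Cd79a, Cd22 and Cd55) and 0 higher, beside 2.03% of all tested genes lower and 1.79% higher. Between BWF1 males and BALB/c females 1 member, Cd55, was lower and 0 were higher, beside 1.85% and 1.67% of all tested genes. These last comparisons share the BALB/c libraries.

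The members were also close together in size of change. Their median log2 fold change was -0.00 for BWF1 females against males, -0.11 for BWF1 females against BALB/c and -0.14 for BWF1 males against BALB/c, where the medians over all tested genes were 0.00, -0.00 and -0.00. The log2 fold change was negative for 18, 23 and 22 of the 33 members in those comparisons. The 95% interval lay within a 2-fold change in either direction for 31, 31 and 32 of the 33 members, against 59.6%, 59.8% and 68.6% of all tested genes, many of which have lower counts and wider intervals. Groups did not overlap for 8, 12 and 11 members, that is, every library of one group lay above every library of the other; the share among all tested genes was 18.7%, 21.2% and 23.5%.

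**Figure D2:**
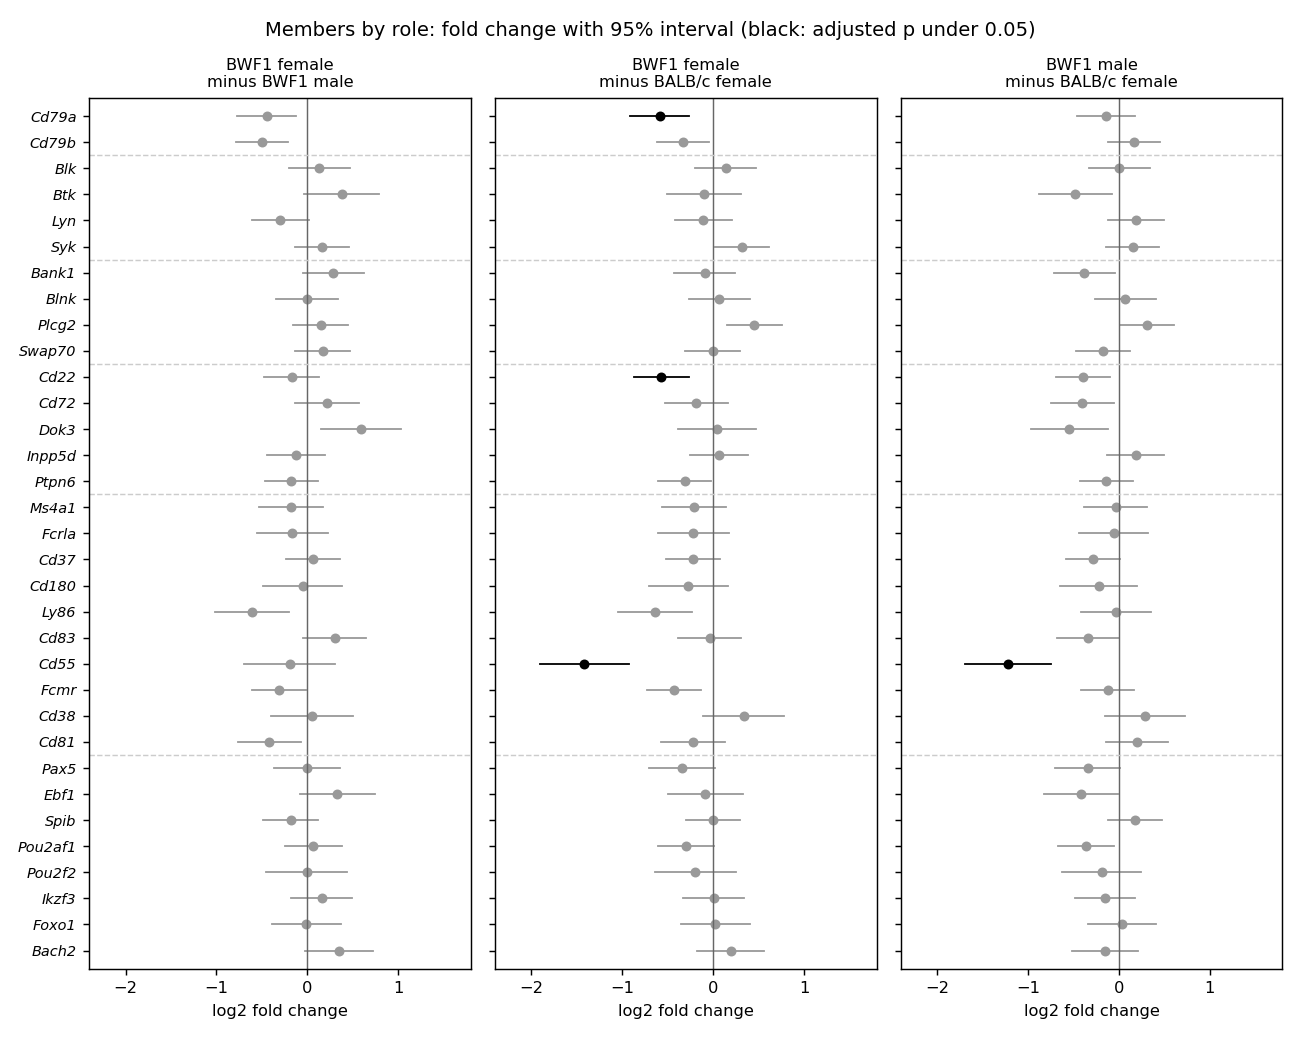
Log2 fold change (x axis) of each of the 33 members with its 95% interval, grouped by role with dashed lines, in the 3 comparisons. Black marks the adjusted p values under 0.05: none between BWF1 females and males, Cd79a, Cd22 and Cd55 for BWF1 females minus BALB/c females, and Cd55 for BWF1 males minus BALB/c females.

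Members ranked in level, taken per kilobase of exon and averaged over all 9 libraries, from Cd79a at 261 and Cd79b at 258 CPM per kilobase down to Bach2 at 11.3 CPM per kilobase. Fcmr, the receptor for the Fc part of IgM, came next at 172 CPM per kilobase, followed by Ptpn6 at 125. Transcription factor genes spread widely on this scale, with Ebf1 at 12.8 and Pou2f2 at 12.7 CPM per kilobase, Pax5 at 43.3 and Spib at 71.7, and the coactivator Pou2af1 was at 82.2.

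The sequences before the starts of the members called on the TMM scale are shown because those genes carry the called differences. They come from RefSeq on GRCm38.p6, where 27 of the 33 members had a window of 300 bases, 250 before and 50 after the annotated start. Printed are the bases before that start that lie outside any GENCODE exon of the gene, 5′ to 3′ on the gene's strand: chr1:130462745-130462994 (minus) for Cd55, chr7:24897247-24897380 (plus) for Cd79a and chr7:30879029-30879176 (minus) for Cd22. Capitals mark a motif match: TTCCTC in Cd79a, from 140 bases before the start, and TCCCTGGGGA in Cd22, from 49 bases before it.
Cd55: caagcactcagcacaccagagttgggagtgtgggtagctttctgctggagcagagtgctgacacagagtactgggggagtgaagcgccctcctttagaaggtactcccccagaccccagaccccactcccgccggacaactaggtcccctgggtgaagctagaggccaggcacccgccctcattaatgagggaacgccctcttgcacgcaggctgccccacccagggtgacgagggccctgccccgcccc
Cd79a: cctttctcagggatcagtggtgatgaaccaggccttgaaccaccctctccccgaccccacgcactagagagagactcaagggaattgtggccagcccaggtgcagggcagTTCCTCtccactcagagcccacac
Cd22: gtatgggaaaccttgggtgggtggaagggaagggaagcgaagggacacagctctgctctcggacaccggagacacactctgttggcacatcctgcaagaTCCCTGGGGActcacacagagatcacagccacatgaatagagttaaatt

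Motifs of 3 kinds of B cell factor were searched on both strands of the windows of 300 bases. The 27 members have 30 such windows, since a gene can have more than 1. The octamer bound by Oct factors, ATGCAAAT or its complement ATTTGCAT, was in 1 of the 27 members, Blnk, and in 1.74% of all 32851 windows. The EBF core TCCCNNGGGA, a palindrome, was in 2 members, Cd22 and Foxo1, and in 0.904% of all windows. The ETS core GAGGAA or TTCCTC was in 12 members, in 12 of the 30 member windows, and in 28.3% of all windows. Neither TTCCTC nor the other motifs were in the Cd55 window. A match describes letters only, and no binding was measured.

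The 2 receptor chains had their lowest levels in BWF1 females. Cd79a was at 313, 321 and 251 CPM in BWF1 females, at 330, 478 and 399 in BWF1 males and at 435, 412 and 485 in BALB/c females. All 3 BWF1 female libraries lay below all the others. Cd79a was 1.50-fold higher in BALB/c females than in BWF1 females (a log2 difference of -0.59, SE 0.16, edgeR adjusted p = 0.0288), and the difference from BWF1 males was -0.45 (SE 0.16, adjusted p = 0.134), called only without BWF1 male 1 (adjusted p = 0.0489). The BALB/c call was lost without BWF1 female 1 or 3, or without any of the 3 BALB/c libraries, with edgeR adjusted p from 0.0533 to 0.141. With the file name tag as a covariate it was -0.40 (adjusted p = 0.36), and with library sizes only -0.87 (adjusted p = 0.218). Within the ORIG libraries alone, the 1 BWF1 female was at 321 CPM, below the 3 BALB/c libraries. Against the B reference Cd79a gets no call, since it is part of it.

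Cd79b was at 324, 294 and 287 CPM in BWF1 females, at 414, 452 and 411 in BWF1 males and at 345, 407 and 383 in BALB/c females. The females were again the lowest group, here with the males above both. The difference between BWF1 females and males was -0.50 (SE 0.14) with an edgeR adjusted p of 0.0601, and an adjusted p of 0.019 by DESeq2 and 0.0286 by limma-voom. Cd79b differed from BALB/c females by -0.33 in BWF1 females (adjusted p = 0.222) and by 0.17 in BWF1 males (adjusted p = 0.601), both by edgeR. The females lay below the males within each tag, at 324 and 287 against 414 and 411 CPM (RL) and at 294 against 452 CPM (ORIG).

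The proximal kinases showed no call on the TMM scale in any comparison. Syk was at 532, 415 and 515 CPM in BWF1 females, at 410, 453 and 441 in BWF1 males and at 369, 432 and 373 in BALB/c females. The groups overlapped, with BWF1 female 2 below BALB/c female 2. Lyn, which both starts and restrains the signal, ranged from 134 to 178 CPM over the 9 libraries and Blk from 131 to 194 CPM. Btk, the kinase mutated in human and mouse immunodeficiency, was at 48.5 to 50.2 CPM in males and 47.2 to 75.8 CPM elsewhere, with a difference between BWF1 males and BALB/c females of -0.48 (edgeR adjusted p = 0.197).

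Among adaptors and effectors, Plcg2 stood highest in the BWF1 females. It was at 251, 224 and 209 CPM there, at 214, 193 and 212 CPM in BWF1 males and at 170, 172 and 158 CPM in BALB/c females. Every BWF1 library lay above every BALB/c library. The log2 fold change was 0.45 in females (SE 0.15, edgeR adjusted p = 0.0856) and 0.31 in males (SE 0.14, adjusted p = 0.289), neither past the threshold. Blnk, the linker that assembles Btk and Plcg2, ranged from 108 to 147 CPM, the scaffold Bank1 from 153 to 264 CPM and Swap70, a guanine nucleotide exchange protein, from 231 to 329 CPM.

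Cd22 was the inhibitory member called on the TMM scale. This sialic acid-binding receptor, which recruits Ptpn6 to the activated receptor, was at 304, 255 and 341 CPM in BWF1 females, at 335, 366 and 313 in BWF1 males and at 421, 447 and 467 in BALB/c females. All 6 BWF1 libraries lay below all 3 BALB/c libraries. The log2 fold change was -0.57 in BWF1 females (SE 0.15, edgeR adjusted p = 0.0225), a level 1.48-fold higher in BALB/c, and -0.40 in BWF1 males (SE 0.14, adjusted p = 0.141). The female call was lost without BWF1 female 1 or 2, or BALB/c female 2 or 3 (edgeR adjusted p 0.0695 to 0.14), with the tag as a covariate (-0.62, adjusted p = 0.0976) and with library sizes only (-0.85, adjusted p = 0.241). The ORIG BWF1 female was at 255 CPM and the ORIG BWF1 male at 366 CPM, both below the BALB/c range.

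The other inhibitory members did not pass the test. Cd72, a receptor that also recruits Ptpn6, ranged from 71.0 to 108 CPM, Ptpn6 from 292 to 421 CPM and the lipid phosphatase gene Inpp5d from 156 to 220.5 CPM. Dok3, an adaptor that works with Inpp5d, was at 81.6, 88.7 and 86.2 CPM in BWF1 females, at 41.2, 77.9 and 50.6 in BWF1 males and at 66.1, 88.1 and 95.2 in BALB/c females. The males lay below the BWF1 females without overlap, at a difference of 0.59 (edgeR adjusted p = 0.151) that was called without BWF1 male 2, the highest male.

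Cd55 differed from BALB/c by more than any other member did, in both BWF1 sexes. It encodes decay-accelerating factor, a lipid-anchored surface protein that breaks up complement convertases and so shields cells from complement, and which leukocytes of many kinds carry. Cd55 was at 37.5, 64.5 and 61.6 CPM in BWF1 females, from 17, 40 and 30 counts; at 35.3, 89.2 and 61.2 CPM in BWF1 males, from 18, 87 and 294 counts; and at 157, 143 and 140 CPM in BALB/c females, from 218, 217 and 141 counts. All 6 BWF1 libraries lay well below all 3 BALB/c libraries, and the BWF1 sexes overlapped.

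Cd55 was 2.67-fold higher in BALB/c females than in BWF1 females (a log2 difference of -1.41, SE 0.24, 95% interval -1.91 to -0.92, edgeR adjusted p = 0.000624). It was 2.33-fold higher in BALB/c females than in BWF1 males (-1.22, SE 0.23, 95% interval -1.69 to -0.74, edgeR adjusted p = 0.00173). BWF1 females and males differed by -0.20, with a 95% interval from -0.69 to 0.30 (edgeR adjusted p = 0.748). Both calls against BALB/c held in each of the 9 fits that left out a library. With the tag as a covariate the female difference was -1.02 (edgeR adjusted p = 0.0335) and the male difference -0.85, which was no longer called (adjusted p = 0.0826). Among ORIG libraries the single BWF1 female and male were at 64.5 and 89.2 CPM, against 140 to 157 CPM in BALB/c. The near copy Cd55b had 0 counts in all libraries, and the exons of Cd55 overlap an antisense gene, Gm16083, that was not counted; without strand in the counting notes used here, reads of such a pair cannot be told apart.

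**Figure D3:**
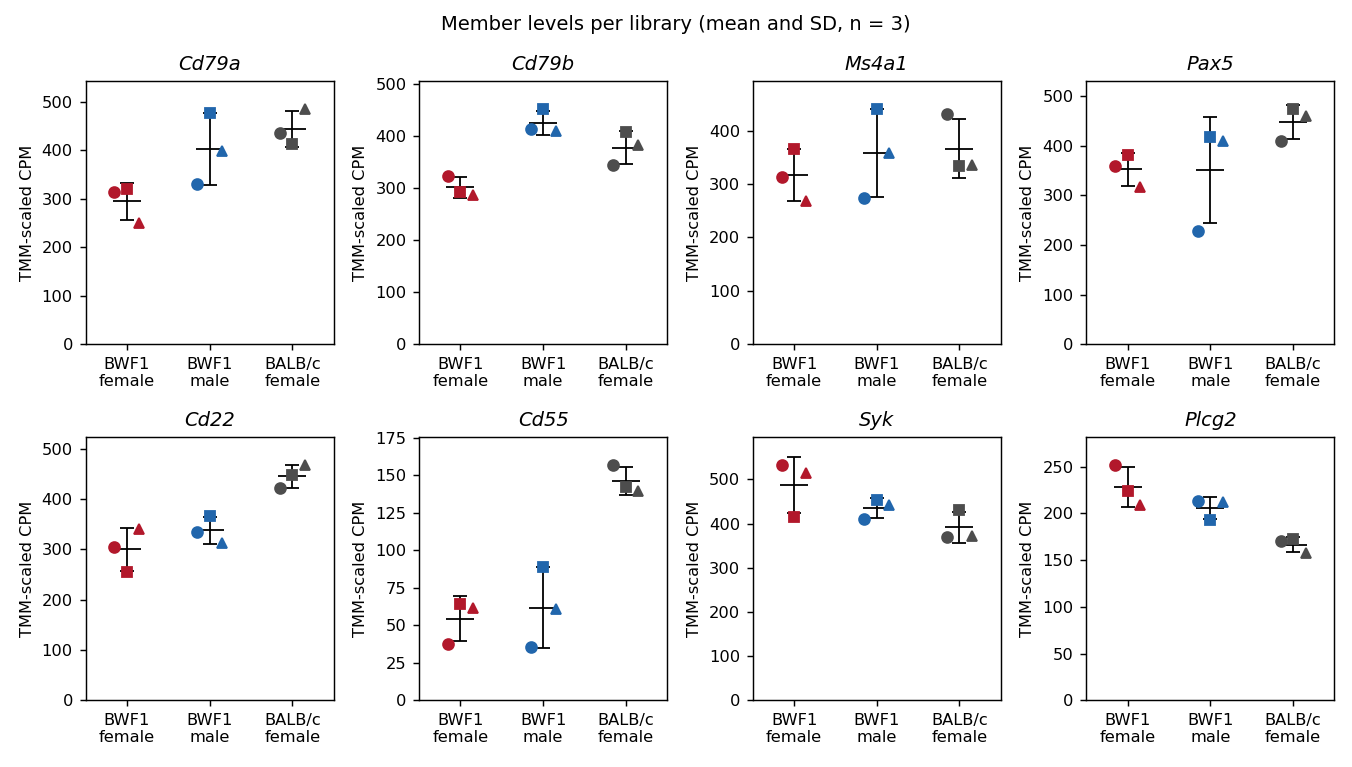
TMM-scaled CPM of 8 members in each library (circle, square and triangle for replicates 1, 2 and 3) with the group mean and SD (n = 3). For Cd55 and Cd22 all BWF1 points lie below all BALB/c points; for Plcg2 they lie above; for Cd79a the BWF1 females lie below both other groups.

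Other surface members varied less. Ms4a1, which encodes CD20, was at 313, 366 and 269 CPM in BWF1 females, at 275, 440 and 359 in BWF1 males and at 430.5, 333 and 335 in BALB/c females. All 3 groups overlapped, and no difference passed the test (edgeR adjusted p 0.574 to 0.957). Ly86, the partner protein of the Toll-like receptor relative Cd180, was at 44.1 to 51.6 CPM in BWF1 females, 60.8 to 87.2 CPM in BWF1 males and 64.7 to 82.3 CPM in BALB/c females. Its female difference was -0.61 from males (edgeR adjusted p = 0.109) and -0.64 from BALB/c (adjusted p = 0.0716). Cd180 itself ranged from 76.5 to 151 CPM in BWF1 mice and 128 to 149 CPM in BALB/c mice, with overlap.

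Fcmr was at 232 to 267 CPM in BWF1 females against 300 to 376 CPM in BALB/c females, a difference of -0.43 that missed the threshold (edgeR adjusted p = 0.0971). The tetraspanin genes Cd37 and Cd81 ranged from 241 to 359 CPM and from 78.0 to 120 CPM. Cd38, an ectoenzyme, ranged from 56.9 to 116 CPM, Cd83, an activation marker, from 78.9 to 121 CPM, and Fcrla, an intracellular Fc receptor-like protein, from 61.6 to 116 CPM. None of these was called in any comparison.

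The transcription factors included 0 calls. Pax5 was at 359.5, 381 and 316 CPM in BWF1 females, at 228, 417 and 409 in BWF1 males and at 408, 473 and 460 in BALB/c females. The females lay below BALB/c without overlap, and BWF1 male 1 was the lowest of all. Its differences from BALB/c were -0.34 in each sex (edgeR adjusted p 0.324 in females and 0.339 in males). Spib, an Ets factor used by B cells and plasmacytoid dendritic cells, was the steadiest member over the 9 libraries, at 181 to 237 CPM, and Pou2af1, the coactivator of Oct factors, ranged from 171 to 253 CPM. Ebf1 ranged from 74.5 to 175 CPM, Pou2f2 from 58.8 to 134 CPM, Ikzf3 from 171 to 279 CPM, Foxo1 from 92.2 to 151 CPM and Bach2 from 91.0 to 161 CPM.

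Some libraries were low for many members at once. BWF1 male 1 had the lowest male level for 22 of the 33 members, and BWF1 female 3 the lowest BWF1 female level for 20. The same count was not made over all tested genes, so it is not known whether this is particular to the members. The SD of log2(CPM + 1) over the 9 libraries ranged from 0.12 for Spib to 0.80 for Cd55, with a median of 0.23, where all tested genes had 0.37. Many of the tested genes have lower counts, which widens this SD, and they were not matched to the members by level. Subtracting the B reference from each library lowered this SD for 4 of 7 members that are largely restricted to B cells and stand outside the reference (Cd22, Fcrla, Blk, Ebf1, Bank1, Pou2af1 and Fcmr), with the median going from 0.26 to 0.25. Among the 22 members that other leukocytes share, it lowered the SD for 6, and the median went from 0.22 to 0.28. That split into restricted and shared genes rests on textbook knowledge.

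Rescaling every library to its B reference then asked which members changed against the reference genes. On that scale 3 of the 29 members outside the reference were called between BWF1 females and BALB/c females, 1 lower (Cd55) and 2 higher (Syk and Plcg2). Of all genes on this scale 0.687% were lower and 7.39% higher. The B reference being lower in BWF1 females, the median of all tested genes moved to 0.36, and the members' median to 0.25. Between BWF1 males and BALB/c females 1 of 29 was called, Cd55, lower, beside 0.855% of all genes lower and 1.05% higher. Between BWF1 females and males 1 of 29 was called, Dok3, higher in females, beside 1.89% of all genes in either direction. These counts rest on single libraries: without BWF1 male 1 they were 10 between the BWF1 sexes and 6 for BWF1 females against BALB/c. In that fit 887 and 1276 of the 8196 genes that passed the filter were called in these comparisons, against 146 and 623 of 7719 with all libraries. The count for BWF1 females against BALB/c fell to 0 without BWF1 female 1 or BALB/c female 1.

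Cd55 remained low on the B scale. Its level, rescaled to a common B reference, was 41.7, 69.2 and 79.9 CPM in BWF1 females, at 42.2, 72.7 and 56.5 in BWF1 males and at 141, 129 and 124 in BALB/c females. Again no BWF1 library reached the BALB/c range. The differences from BALB/c were -1.04 in BWF1 females (SE 0.24, edgeR adjusted p = 0.0122) and -1.18 in BWF1 males (SE 0.24, adjusted p = 0.00614), and 0.13 between the sexes (adjusted p = 0.801). The female call was lost without BWF1 female 1 (-0.82, edgeR adjusted p = 0.0688) or BALB/c female 1 (-0.99, adjusted p = 0.0671), while the male call held in each of the 9 fits that left out a library (adjusted p up to 0.0492). With the tag as a covariate they were -0.80 (adjusted p = 0.175) and -0.95 (adjusted p = 0.0976).

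Cd22 was not called on this scale. It differed from BALB/c by -0.18 in BWF1 females (edgeR adjusted p = 0.579) and by -0.28 in BWF1 males (adjusted p = 0.581). The receptor chains are 2 of the 4 reference genes and so were not tested. Cd79a stood at -0.23 in BWF1 females and -0.05 in BWF1 males, and Cd79b at 0.04 and 0.29.

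Syk and Plcg2 were the members higher in BWF1 females against BALB/c on the B scale. Rescaled Syk was at 590.5, 445 and 669 CPM in BWF1 females, at 489.9, 369 and 407 in BWF1 males and at 333, 389 and 329.6 in BALB/c females. The females lay above all BALB/c libraries, and the males overlapped both groups. Its BWF1 female difference of 0.69 (SE 0.20, edgeR adjusted p = 0.034) stands beside a median of 0.36 over all tested genes. Rescaled Plcg2 was at 279, 241 and 272 CPM in BWF1 females, at 255, 157 and 196 in BWF1 males and at 154, 155 and 139 in BALB/c females, with a female difference of 0.82 (SE 0.20, adjusted p = 0.016). Every BWF1 library lay above every BALB/c library for Plcg2, BWF1 male 2 by a small margin. The Syk call was lost without BWF1 male 3, BWF1 female 1 or 3 or any BALB/c library (edgeR adjusted p 0.0506 to 0.147), the Plcg2 call without BWF1 female 1 or 3 or any BALB/c library (adjusted p 0.0514 to 0.09), and both with the tag as a covariate. Neither was called on the TMM scale. Both genes are also used by myeloid cells, and the macrophage markers summed to 251 CPM in BWF1 females and 390 CPM in BALB/c females on the TMM scale. On the B scale 1 of the 11 macrophage markers tested, Adgre1, was higher in BWF1 females and 0 were lower. Adgre1 (1.38, edgeR adjusted p = 0.0454) rested on 8, 9 and 6 counts in BWF1 females and 12, 8 and 8 in BALB/c females. Of all genes on this scale 7.39% were higher and 0.687% lower. The list median was 0.13 against 0.36 over all tested genes. On the TMM scale 0 of the 11 were higher and 1, Lyz2, was lower (-1.09, edgeR adjusted p = 0.00217). The part of the macrophage markers in the Syk and Plcg2 results was not tested.

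Rescaled Dok3 was at 90.7, 95.2 and 112 CPM in BWF1 females, at 49.2, 63.5 and 46.7 in BWF1 males and at 59.7, 79.4 and 84.1 in BALB/c females. The BWF1 females lay above all other libraries. Their difference from BWF1 males was 0.90 (SE 0.23, edgeR adjusted p = 0.0422), beside a median of 0.27 over all tested genes, and the call held in 2 of the 9 fits that left out a library, those without BWF1 male 1 or 2 (adjusted p up to 0.215 in the others). With the reference of Ms4a1, Pax5 and Cd22 it was 0.73 (adjusted p = 0.127).

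**Figure D4:**
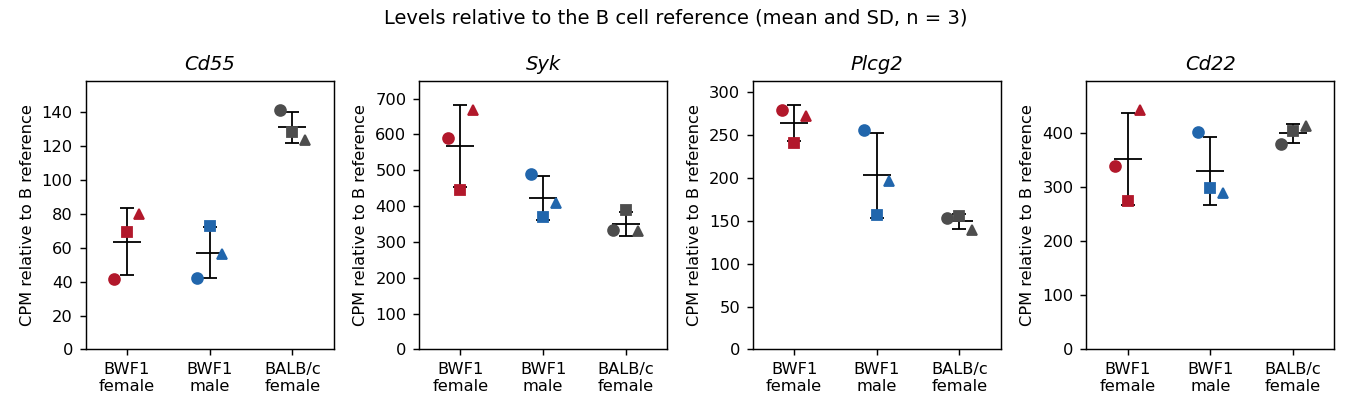
CPM of 4 members after each library was rescaled to a common B reference level, by library (symbols for replicates 1 to 3), with group mean and SD (n = 3). Cd55 stays between 41.7 and 79.9 CPM in BWF1 mice and between 124 and 141 CPM in BALB/c mice, whereas the Cd22 groups overlap.

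Of 73 other genes of the pathway, all passed the filter. Between BWF1 females and males 1 was called lower and 0 higher, beside 2.19% of all tested genes in either direction. In BWF1 females against BALB/c 5 were lower and 1 higher, beside 2.03% and 1.79% of all tested genes. In BWF1 males against BALB/c 2 were lower and 0 higher, beside 1.85% and 1.67%. The medians over the 73 were -0.00, 0.03 and 0.02. None of the 12 calcium and NFAT genes or the 8 genes of the Akt branch was called in any comparison on the TMM scale, where these shares apply as well. On the B scale 7 of the 73 were higher, and 0 lower, in BWF1 females against BALB/c females, beside the 7.39% and 0.687% of all genes. Among those 7 were Ptpn22 at 1.16 and the NF-kB protease gene Malt1 at 0.87 (edgeR adjusted p = 0.00614 and 0.00995), with a list median of 0.38 against 0.36 over all tested genes. For BWF1 males against BALB/c females 2 of 73 were lower and 0 higher, beside 0.855% and 1.05% of all genes. Between BWF1 females and males 1, the calcium channel gene Itpr1, was higher in females, beside 1.89% of all genes in either direction. Its difference was 0.83 (edgeR adjusted p = 0.0361), beside a median of 0.27 over all tested genes. That call held in 2 of the 9 fits that left out a library.

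Rasgrp3 and Siglecg were lower in both BWF1 groups. Rasgrp3, which passes the diacylglycerol signal made by Plcg2 on to Ras, was at 57.3, 64.5 and 61.6 CPM in BWF1 females, at 39.2, 45.1 and 51.8 in BWF1 males and at 124, 106 and 95.2 in BALB/c females. The 3 groups did not overlap. The difference from BALB/c was -0.82 in females (SE 0.18, edgeR adjusted p = 0.00892) and -1.23 in males (SE 0.18, adjusted p = 9.99e-05). The female call was lost without BALB/c female 1 (-0.72, edgeR adjusted p = 0.0662), by DESeq2 (adjusted p = 0.0526), with the tag as a covariate (-0.80, adjusted p = 0.0791) and with library sizes only (-1.10, adjusted p = 0.116). On the B scale the male difference was -1.15 (edgeR adjusted p = 0.00311) and the female one -0.45, not called (adjusted p = 0.181).

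Siglecg, an inhibitory receptor of the same family as Cd22, was at 57.3, 50.0 and 61.6 CPM in BWF1 females, at 45.1, 67.7 and 49.1 in BWF1 males and at 113, 120 and 86.2 in BALB/c females. All BWF1 libraries lay below all BALB/c libraries. The differences from BALB/c were -0.92 in females (SE 0.20, edgeR adjusted p = 0.00629) and -0.97 in males (SE 0.19, adjusted p = 0.00286), and both held in each fit that left out a library. With the tag as a covariate they were -0.81 (edgeR adjusted p = 0.11) and -0.87 (adjusted p = 0.052), and with library sizes only the female difference was -1.21 (adjusted p = 0.0637). On the B scale the male difference of -0.90 was called (adjusted p = 0.0338), in 5 of the 9 fits that left out a library, and the female difference of -0.55 was not (adjusted p = 0.127).

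Cr2, a receptor of B cells for complement fragments, was at 245, 318 and 207 CPM in BWF1 females, at 286, 291 and 347 in BWF1 males and at 471, 427 and 368 in BALB/c females. Every BWF1 library lay below every BALB/c library. Its female difference was -0.72 (SE 0.16, edgeR adjusted p = 0.0091), lost without BWF1 female 1 (adjusted p = 0.0567) or BALB/c female 1 (adjusted p = 0.0587) and with the tag as a covariate (-0.60, adjusted p = 0.129) or with library sizes only (-1.01, adjusted p = 0.101), and its male difference -0.45 was not called (adjusted p = 0.128).

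The remaining called pathway genes were less stable. Dok2, an inhibitory adaptor, was at 10.3 to 22.1 CPM in BWF1 females and 30.9 to 39.4 CPM in BALB/c females (-1.31, edgeR adjusted p = 0.0344), and Nfkbia, the NF-kB inhibitor, at 74.2 to 94.8 and 122 to 149 CPM (-0.62, adjusted p = 0.0447). Ptpn22, a phosphatase that restrains Src-family kinases, was higher, at 70.6 to 84.2 CPM in BWF1 females against 36.7 to 60.4 CPM in BALB/c females (0.79, edgeR adjusted p = 0.0343). Rac2, a GTPase of blood cells, was at 275 to 364 CPM in BWF1 females and 437 to 500 CPM in BWF1 males (-0.55, adjusted p = 0.0414). Of the 9 fits that left out a library, the call held in 4 for Dok2, 2 for Nfkbia, 4 for Ptpn22 and 3 for Rac2.

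**Figure D5:**
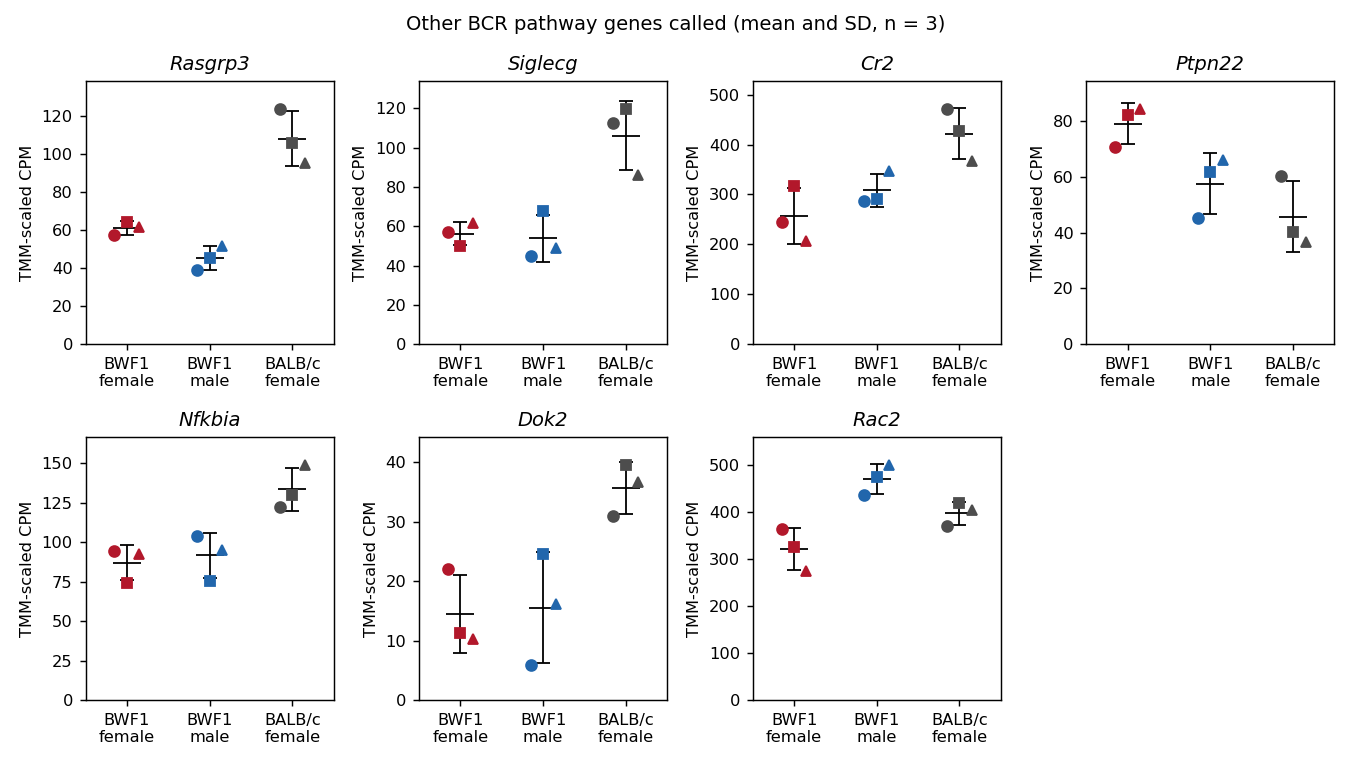
TMM-scaled CPM of the 7 other pathway genes called in at least 1 comparison, by library (symbols for replicates 1 to 3), with group mean and SD (n = 3). Rasgrp3, Siglecg, Cr2, Nfkbia and Dok2 are lower in all BWF1 libraries than in all BALB/c libraries.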

How the data were processed

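Whole-number counts per Ensembl gene were deposited by the authors, 1 file per library and 1 table for the series, with the same values in both; reads were aligned to mm10 with STAR 2.6 after FastQC 0.10.1, per the submitters' processing notes. The files' closing lines hold the counter's unassigned reads, which were left out: only 1.29% to 2.82% of all counted entries were in genes. Strand setting of the counting is not given in the sources used here. Names and coordinates come from GENCODE M21, which matched 21939 of 21965 identifiers.

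Genes were filtered with filterByExpr (minimum count 10), which set 14246 aside, scaled by TMM and fitted over all 9 libraries with edgeR 4.0.16 in R 4.3.3 (quasi-likelihood test, 3 groups, no covariate), and p-values were adjusted by Benjamini-Hochberg over all 7719 tested genes. Differences between groups are given on the log2 scale, and a difference is called at an adjusted p under 0.05. The second scale replaced the TMM factor by 2 to the mean log2 CPM (prior count 2) of the 4 reference genes, which had been planned with 1 further gene that is not reported here; dropping it was decided after results were seen. Alternatives were library sizes only, DESeq2 size factors, removal of Lars2, no filter on low counts, DESeq2 1.42.0, limma-voom (limma 3.58.1), other references (that of Ms4a1, Pax5 and Cd22 chosen after seeing the data), the replicate number as a block, the file name tag as a covariate and leaving out each library. The scripts were checked on simulated counts.

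Full values are given for members called on either scale and for Cd79a, Cd79b, Ms4a1 and Pax5, other members by range and some by value, and other pathway genes where called. Ly86, Fcmr and Btk, and Dok3 on the TMM scale, were singled out after their values were seen. Members and lists were chosen with earlier results of these data known. At the depth of these libraries 3 counts correspond to 0.625 to 6.62 CPM.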

Additional observations from a re-analysis of the deposited data

How the results depend on the processing

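Members called between BWF1 females and males went from 0 to 1 with DESeq2 and with limma-voom (Cd79b) and ranged from 0 to 1 when libraries were left out (Cd79a without BWF1 male 1, Dok3 without BWF1 male 2). Between BWF1 females and BALB/c females the 3 calls became 1, Cd55, with library sizes only and with the tag as a covariate, and ranged from 1 to 3 without single libraries (only Cd55 without BWF1 female 1, BALB/c female 2 or BALB/c female 3). Between BWF1 males and BALB/c females the 1 call became 3 with limma-voom (Cd22, Cd55 and Dok3) and 0 with the tag, and ranged from 1 to 2. On the B scale the 1 call between the BWF1 sexes became 0 with the reference of Ms4a1, Pax5 and Cd22 and with the replicate block, and 2 with limma-voom and DESeq2 (Bank1 and Dok3), and ranged from 0 to 10 without single libraries (10 without BWF1 male 1). For BWF1 females against BALB/c the 3 calls became 0 with the tag (range 0 to 6, the 6 without BWF1 male 1), and for the males against BALB/c the 1 call became 0 with the tag (1 in each fit that left out a library). The number of all genes called also changes with the fit. It is given in this report only for library sizes only and, on the B scale, for the fit without BWF1 male 1. The other member counts of this paragraph have no matching share beside them, and the cause of these shifts was not tested.

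The B reference difference between BWF1 females and males reversed to 0.00572 with library sizes only, and that between BWF1 males and BALB/c females ran from -0.23 to 0.0387 without single libraries. With library sizes only the B reference differences from BALB/c were -0.65 in each BWF1 sex (-0.37 and -0.11 with TMM). Differences near 0 also reversed. Pax5 between the BWF1 sexes was 0.10 with library sizes only, 0.00978 with DESeq2 size factors, 0.0356 with the replicate block and 0.00736 with the tag, and ran from -0.22 to 0.14 without single libraries. With the tag, Ms4a1 against BALB/c was 0.0467 in BWF1 females and 0.22 in males, the male value running from -0.21 to 0.11 without single libraries, and Cd79a was 0.042 for BWF1 males. Cd79b of BWF1 males was -0.32 with library sizes only. That scaling moved the median of all genes by 0.16, -0.29 and -0.44 in the 3 comparisons, and turned the split of calls over all genes from 74 higher and 95 lower to 45 and 14 between the BWF1 sexes. Against BALB/c it went from 138 and 157 to 23 and 107 in BWF1 females, and from 129 and 143 to 26 and 248 in BWF1 males.

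Replicate numbers do not pair the mice: same-numbered libraries of different groups deviated together with correlations from -0.09 to 0.06. With the replicate block the members called were 0, 3 and 1 on the TMM scale and 0, 2 and 1 on the B scale. The library tag could not be separated from strain in full, since no BALB/c library carries the tag RL. The depth of the shallowest libraries limits low members such as Cd55, which rested on 17 counts in BWF1 female 1.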
